A study of Homo sapiens with 6 samples.

Results

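RAG1, RAG2, DNTT, UNG, MSH6, EXO1 and POLH encode enzymes that cut, join and mutate antibody genes. The accessible chromatin in and around these 7 genes was described in GM12878 cells. For each gene, all peak summits in its annotated body (GRCh38) and 25 kb either side were taken from 6 deposited lists on hg38. They are 7 of 19974 protein-coding genes. Their windows held 34 distinct open regions, 3 of which lay in the overlapping windows of RAG1 and RAG2.

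GM12878 is an established B lymphoblastoid line, made by immortalising B cells with Epstein-Barr virus, and every library came from this single line. Low-passage cells were fixed with paraformaldehyde, stained with an antibody to H3K27ac, the acetylated histone H3 tail found at active regulatory DNA, and sorted into an H3K27ac-high group (2 libraries) and an H3K27ac-low group (2 libraries). The live control group (2 libraries) held unsorted fresh cells, purified straight after transposition without the crosslink reversal given to the other groups. Sorting, fixation and crosslink reversal therefore cannot be told apart between the sorted libraries and the live control. Each library was 50000 cells profiled by InTAC-seq, a variant of ATAC-seq that tags open DNA with the Tn5 transposase after intracellular staining. In the sorted groups, replicates were portions of the sorted cells. In all comparisons, p-values measure only the spread between these samples, which may be technical. More cells with an open site and a more open site in each cell cannot be told apart in such bulk libraries.

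The enzymes act at separate steps of B cell development. In precursor lymphocytes, the RAG1 and RAG2 proteins together cut DNA beside the variable, diversity and joining segments. DNTT, the terminal transferase, adds bases without a template to the ends before they are joined, and all 3 genes are normally silent in mature B cells. In activated B cells of the germinal centre, uracils placed in antibody genes are removed by the glycosylase UNG or recognised as mismatches by a complex that contains MSH6. EXO1 then resects the marked strand, and POLH, a low-fidelity polymerase, fills the gap and leaves mutations. UNG, MSH6, EXO1 and POLH also repair or copy DNA throughout the body.

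Promoter sequences of 300 bases (250 before and 50 after an annotated start, RefSeq, GRCh38.p14) were matched for 7 of 7 genes, which have 12 annotated starts. Those of UNG, POLH and RAG1 are shown because an open region overlaps each in all 6 libraries, and those of DNTT and RAG2 because no library has a summit there. Capitals mark matches on either strand to the searched motifs, namely GGGCGG of the SP and KLF factors, CCGGAA of the ETS family, CCAAT of the factor NF-Y, TGCGCA of the factor NRF1, TTCCCGC of the E2F family, TATAAA of the TATA box, TGACGT of the CREB and ATF family and CAGGTG of the E proteins.
UNG, second start, chr12:109097922-109098221, plus strand: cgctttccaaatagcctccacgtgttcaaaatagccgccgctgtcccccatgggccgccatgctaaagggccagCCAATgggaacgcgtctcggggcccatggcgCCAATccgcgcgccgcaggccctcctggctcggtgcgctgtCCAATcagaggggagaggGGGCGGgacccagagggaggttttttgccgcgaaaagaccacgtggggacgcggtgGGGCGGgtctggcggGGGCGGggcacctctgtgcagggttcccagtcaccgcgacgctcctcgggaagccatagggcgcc
POLH, chr6:43575935-43576234, plus strand: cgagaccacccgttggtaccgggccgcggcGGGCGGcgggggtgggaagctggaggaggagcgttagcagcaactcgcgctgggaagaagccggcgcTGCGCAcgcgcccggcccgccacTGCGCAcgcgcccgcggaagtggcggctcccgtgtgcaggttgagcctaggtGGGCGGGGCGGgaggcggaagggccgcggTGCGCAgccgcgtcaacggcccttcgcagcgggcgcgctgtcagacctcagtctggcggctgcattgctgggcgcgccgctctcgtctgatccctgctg
RAG1, chr11:36510103-36510402, plus strand: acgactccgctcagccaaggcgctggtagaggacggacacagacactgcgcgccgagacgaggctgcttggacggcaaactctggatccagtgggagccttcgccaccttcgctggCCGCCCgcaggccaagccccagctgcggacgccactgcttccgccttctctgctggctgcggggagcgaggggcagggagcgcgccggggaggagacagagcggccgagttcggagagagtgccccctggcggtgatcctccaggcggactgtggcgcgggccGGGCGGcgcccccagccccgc
DNTT, chr10:96304184-96304483, plus strand: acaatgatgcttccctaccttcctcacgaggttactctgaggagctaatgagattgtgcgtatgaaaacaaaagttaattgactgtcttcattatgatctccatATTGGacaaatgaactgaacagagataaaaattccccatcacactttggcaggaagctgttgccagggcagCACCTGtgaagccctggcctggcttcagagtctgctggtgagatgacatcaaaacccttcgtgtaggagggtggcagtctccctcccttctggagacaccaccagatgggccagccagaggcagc
RAG2, chr11:36598187-36598486, minus strand: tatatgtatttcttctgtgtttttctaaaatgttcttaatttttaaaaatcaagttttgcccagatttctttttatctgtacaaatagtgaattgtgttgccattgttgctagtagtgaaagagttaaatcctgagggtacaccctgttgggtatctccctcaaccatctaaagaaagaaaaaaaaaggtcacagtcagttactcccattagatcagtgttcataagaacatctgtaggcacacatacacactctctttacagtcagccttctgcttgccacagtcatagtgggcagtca

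The promoters of DNTT and RAG2 held few CpG dinucleotides, and POLH, RAG1, the first MSH6, the second UNG and the first EXO1 promoters held more than the median of 21 over all promoters. The POLH promoter held 43 CpG, more than 93.6% of the 22132 promoters of protein-coding genes. The first MSH6 promoter held 39, the RAG1 promoter 32, the 2 UNG promoters 22 and 29, and the 2 EXO1 promoters 33 and 11. DNTT held 3 and RAG2 held 0. Over all promoters the median was 27 where the start was open in all 6 libraries (8806 starts) and 8 where it was open in none (10296 starts). A start is called open in a library when a region among its 25627 best lies within 1 kb, 25627 being the whole of the shortest list. The sequence printed for UNG matched GGGCGG at 3 places and CCAAT at 3, and that for POLH matched GGGCGG at 3, of which 2 overlap, and TGCGCA at 3. RAG1 matched GGGCGG at 2 places, DNTT matched CCAAT and CAGGTG at 1 each, and RAG2 matched none of the 8 motifs. GGGCGG stands in 56.3% of all promoters, CCAAT in 34.6%, CAGGTG in 20.0% and TGCGCA in 9.89%.

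**Figure D1:**
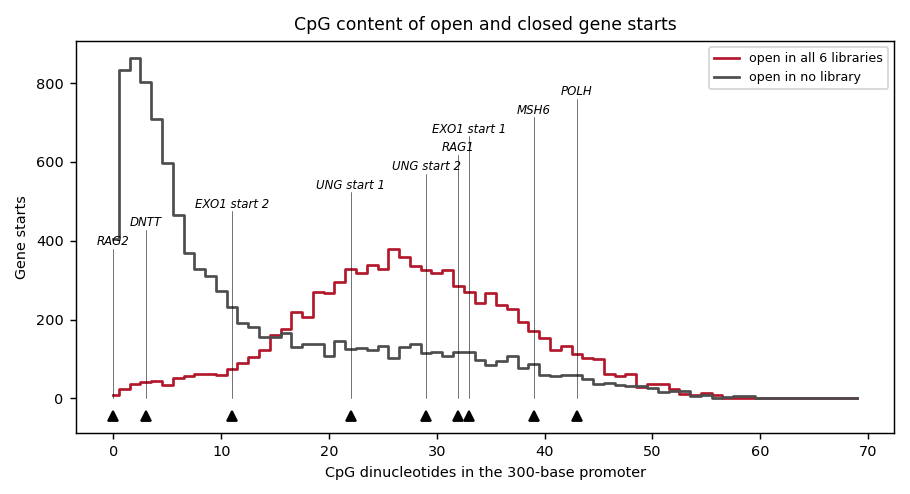
Number of annotated gene starts (vertical axis) against CpG dinucleotides in the 300-base promoter (horizontal axis), for starts open in all 6 libraries and in none. Triangles and labels mark the members (first start only for MSH6). RAG2 and DNTT sit at 0 and 3, and the other members, except the second EXO1 start at 11, sit at 22 to 43.

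The H3K27ac-high lists held 25754 and 46708 summits, the H3K27ac-low lists 41980 and 51944, and the live control lists 70100 and 72476. No read totals were used here, so depth is unknown, and counts from whole lists move with list length. Summits of all libraries closer than 250 bp were joined into regions, and groups were compared on the 25627 best-scoring regions of each library. A region within 25 kb in all 6 libraries was found at 7 of 8 B cell markers, 6 of 6 T cell markers, 1 of 4 precursor B cell markers and 2 of 6 myeloid markers, against 67.5% of all genes. A region within 1 kb of a gene end in all 6 was found at 4 B cell (MS4A1, CD79B, EBF1 and CD74), 2 T cell (CD3E and CD8A), 0 precursor B cell and 0 myeloid markers, against 40.2% of all genes. By annotated start, which 5 B cell markers have, CD74 was open in all 6 libraries and EBF1 and CD22 in none. These lists therefore did not separate B cells from T cells by the wider window.

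Of the 7 genes, 5 had an open start in all 6 libraries (RAG1, UNG, MSH6, EXO1 and POLH) and 2 in none (RAG2 and DNTT). Over 15812 genes with an annotated start, 44.7% were open in all libraries and 41.4% in none. At RAG1 and POLH the start is shared: the start of TRAF6, an adaptor of innate immune signalling, lies 81 bp from that of RAG1 on the opposite strand. The start of XPO5, a nuclear export factor for microRNA precursors, lies 147 bp from that of POLH. The single open region at each cannot be assigned to either gene. Openness at RAG1 refers to its 1 annotated start, at the upstream edge of a 69.4 kb gene body. No start further inside RAG1 was examined. No member was open in both libraries of one sorted group and neither of the other, against 0.259% of all genes for high only and 1.39% for low only.

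**Figure D2:**
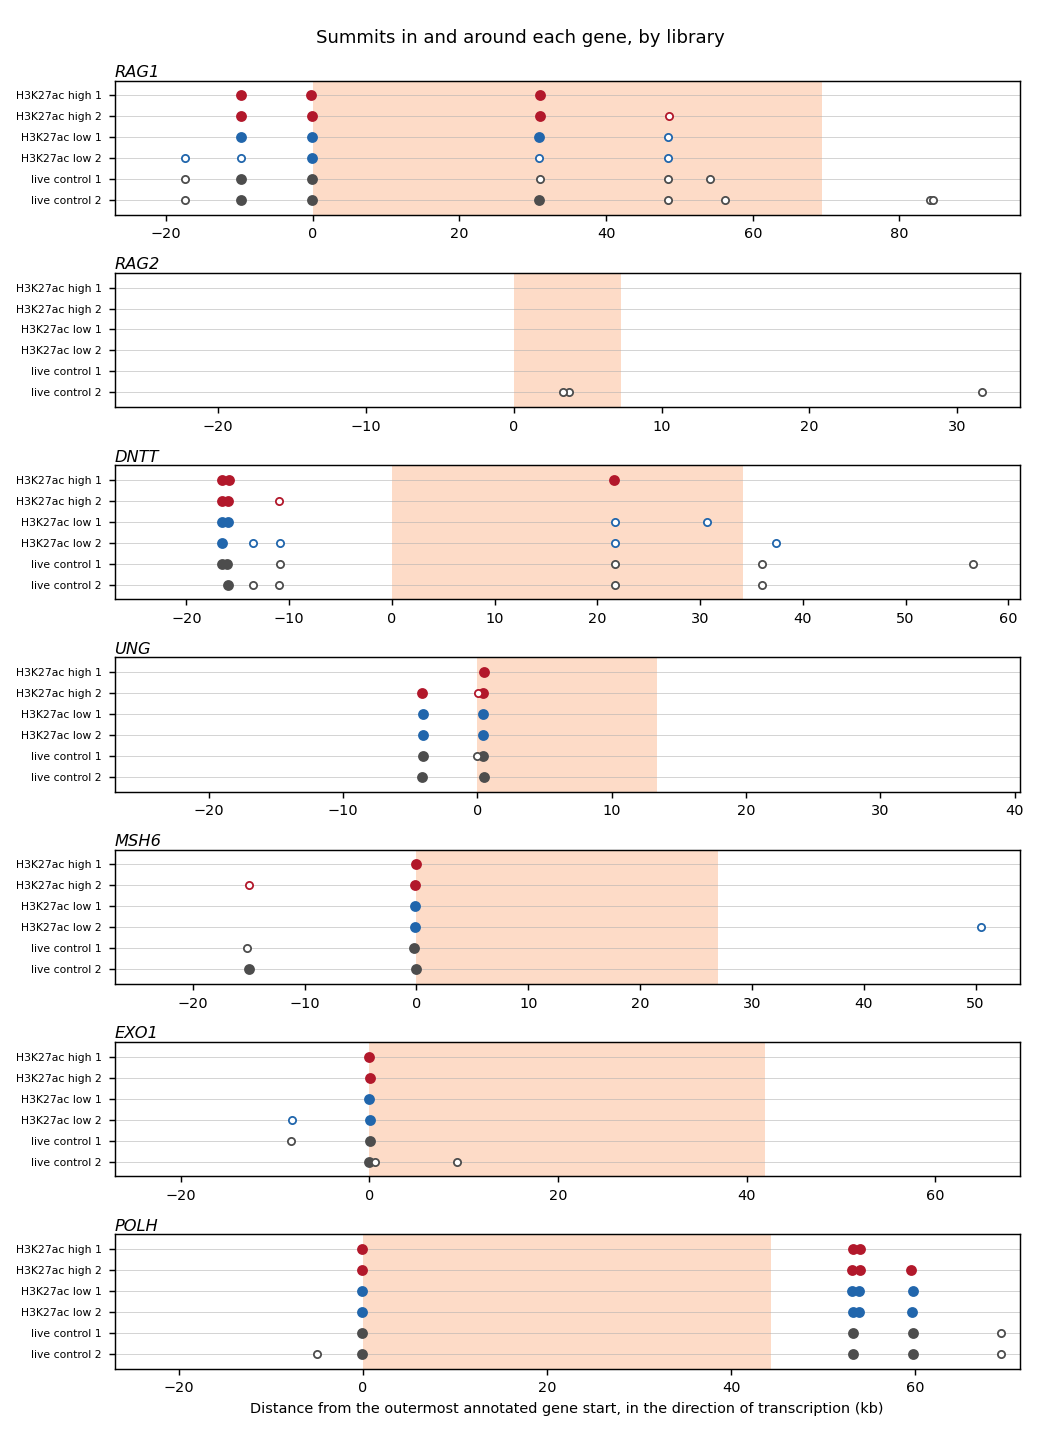
Summits in each gene window by library (rows) against distance from the outermost annotated start in the direction of transcription (kb). Shading marks the gene body, filled points are regions among the 25627 best of a library and open points lie further down its list. RAG2 has points in live control replicate 2 only, EXO1 has filled points at its start alone, and DNTT has no point at its start.

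RAG1, which carries the active site of the recombinase, had an open region at the start it shares with TRAF6 and others far from it. The start region (chr11:36510157-36510291, hg38) had its summit 196 and 106 bp upstream of the RAG1 start in the H3K27ac-high libraries, 62 and 115 bp in the H3K27ac-low libraries and 62 and 97 bp in the live control libraries. Its score ranked 6178 and 6324 in the high, 4585 and 7708 in the low and 6322 and 3886 in the live control, where rank 1 is the best region of a library and a larger number is a lower rank. The groups overlapped in all 3 comparisons.

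Inside the RAG1 gene, a region 30.9 kb from the start (chr11:36541148-36541297) was listed in every library. It ranked 13215 and 23451 in the H3K27ac-high libraries, 23449 and 28791 in the H3K27ac-low libraries and 33915 and 15030 in the live control, so 4 libraries had it among their best and the groups overlapped. Another, 48.5 kb from the start (chr11:36558776-36558923), was listed in 5 libraries, all but H3K27ac high replicate 1, and ranked between 26549 and 35700, outside the best regions of each. Single summits lay 54.2 kb (live control replicate 1, rank 26510) and 56.2 kb (live control replicate 2, rank 53531) from the start. A region 9.7 kb upstream, inside TRAF6 (chr11:36500559-36500653), ranked 16020 and 24159 in the high, 21996 and 28906 in the low and 13798 and 18471 in the live control libraries. One 17.4 kb upstream was listed in H3K27ac low replicate 2 (rank 30903) and in both live control libraries (ranks 59918 and 51809), outside the best of each.

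RAG2, the partner of RAG1 that reads the methylated histone tail of active chromatin, had no region among the best of any library. Windows without one numbered 3538 of 19974 genes (17.7%). The whole lists of the H3K27ac-high libraries, the H3K27ac-low libraries and live control replicate 1 held 0 summits in the RAG2 window. Live control replicate 2 held 3. Of these, 2 lay inside RAG2, 9 and 72 bp from starts of the overlapping gene IFTAP, and ranked 70624 and 70625 of 72284 regions. The third is the summit inside RAG1 at rank 53531.

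DNTT had no summit within 1 kb of its start in any library, and the only window regions among the best of 5 libraries lay upstream, between it and BLNK, an adaptor of B cell receptor signalling. H3K27ac high replicate 1 was the exception, with its best-ranked DNTT region inside the gene. The region 16.5 kb upstream (chr10:96287889-96287922) lay 16336 bp from the nearest start of BLNK, about as far as from DNTT. It ranked 18471 and 20162 in the H3K27ac-high libraries, 11808 and 13868 in the H3K27ac-low libraries, and 16894 in live control replicate 1, and was absent from live control replicate 2. Both low libraries ranked it above both high libraries. The share of all regions with this order was not computed. Among the 7061 genes open at a start in all libraries it was 38.4%.

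A second upstream region, 16.0 kb from the start (chr10:96288405-96288529), gave a different order. It ranked 16646 and 12510 in the H3K27ac-high libraries, 20327 in H3K27ac low replicate 1 and 22125 and 20814 in the live control, and was absent from H3K27ac low replicate 2. That library listed the first upstream region, and live control replicate 2, which lacked the first, listed this one. The regions are close neighbours and every deposited peak has 1 summit. An absence of either therefore cannot be told from a peak shared with the other. Inside DNTT, 21.7 kb from the start, a region (chr10:96326079-96326184) was missing from H3K27ac high replicate 2 and ranked 15523 in high replicate 1. It ranked 28347 and 42107 in the low and 51774 and 62249 in the live control, below the best regions of all 4. The 2 high libraries therefore disagreed on it. Other upstream regions, nearer to DNTT, were outside the best of every library that listed them.

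UNG, the uracil glycosylase, was open between its 2 annotated starts, and that region ranked lower in the H3K27ac-high libraries than in the others. The gene has alternative promoters for a nuclear and a mitochondrial form, 109097597 and 109098172 being the annotated starts on chromosome 12. The summit (chr12:109098009-109098073) lay 107 and 111 bp upstream of the second start in the high, 163 and 144 bp in the low and 118 and 99 bp in the live control libraries, all within the UNG promoter printed above. It ranked 12262 and 11192 in the high, 4112 and 3612 in the low and 3345 and 6151 in the live control. Both high libraries ranked it below all 4 others. How many open genes share that order against both groups at once was not computed.

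The mean log2 rank of UNG was 13.52 ± 0.09 (SD, n = 2) in the H3K27ac-high and 11.91 ± 0.13 (SD, n = 2) in the H3K27ac-low libraries, a difference of 1.60, or a rank number 3.04 times as large. The exact two-sided permutation test gave p = 0.3333, the lowest that 2 libraries against 2 allow (adjusted over 7061 genes, p = 0.646). Over the 7061 genes open at a start in all libraries, the median difference was 0.32, and 6.88% of genes differed by at least as much as UNG in that direction. Both high libraries ranked below both low libraries at 38.4% of those genes, and above them at 13.2%. Against the live control, with 12.15 ± 0.62 (SD, n = 2), the high libraries differed by 1.37 (exact p = 0.3333, adjusted p = 0.594), a direction without overlap that 31.1% of genes share. At the first start of UNG, a summit was listed in H3K27ac high replicate 2 (rank 35567) and live control replicate 1 (rank 58015), outside the best regions of both.

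The neighbour ALKBH2, a DNA dealkylation repair gene, had an open start 4125 bp from the nearest UNG start. Its region (chr12:109093516-109093565) was absent from H3K27ac high replicate 1 and ranked 12731 in high replicate 2. It ranked 9210 and 11553 in the low and 25494 and 11227 in the live control, so the groups overlapped except that both low libraries lay above the 1 high library that listed it.

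MSH6, which recognises single-base mismatches, had an open region just upstream of the first of its 4 annotated starts. The second start also lay within 1 kb of it in every library. All 4 sorted libraries ranked the region above both live controls. The region (chr2:47782944-47783116) had summits 55 and 154 bp upstream of the first start in the H3K27ac-high libraries, 107 and 128 bp in the H3K27ac-low libraries and 201 and 29 bp in the live control libraries. It ranked 3580 and 4080 in the high, 2370 and 3674 in the low and 9732 and 6217 in the live control. The high and low libraries overlapped.

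The log2 rank of MSH6 differed from the live control by -1.03 in the H3K27ac-high and by -1.40 in the H3K27ac-low libraries. Group means were 11.90 ± 0.13 (high), 11.53 ± 0.45 (low) and 12.93 ± 0.46 (live control, SD, n = 2 each). Each exact permutation test gave p = 0.3333 (adjusted p = 0.594 and 0.533). Groups that do not overlap in these directions were found at 25.0% of genes for high and 39.8% for low, and both comparisons share the live control libraries. The share of genes with both was not computed. A second region 15.1 kb upstream (chr2:47768033-47768132) was listed in H3K27ac high replicate 2 (rank 42083) and in both live control libraries (ranks 32227 and 21645), and in neither low library. It was among the best regions of live control replicate 2 alone.

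EXO1, the exonuclease, had the best-ranked start of the members in 4 of the 6 libraries, both H3K27ac-high and both live control ones. Its region (chr1:241847934-241848081) had summits 208 and 132 bp upstream of the first start in the high, 252 and 123 bp in the low and 132 and 270 bp in the live control libraries. It ranked 1209 and 2733 in the high, 3152 and 2414 in the low and 1720 and 2429 in the live control libraries. The groups overlapped in all 3 comparisons, and the difference in mean log2 rank between high and low, -0.60, was smaller than the SD of 0.83 in the high libraries. It was -0.013 without H3K27ac high replicate 1, -1.19 without high replicate 2 and -0.41 without low replicate 1. No other region in the EXO1 window was among the best of any library.

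POLH, the polymerase that fills the resected gap, shares its open start with XPO5, and that region ranked lower in the H3K27ac-high than in the H3K27ac-low libraries. Summits (chr6:43576073-43576111) lay 112 and 74 bp upstream of the POLH start in the high, 86 and 102 bp in the low and 106 and 81 bp in the live control libraries. The region ranked 21706 and 8720 in the high, 4689 and 2023 in the low and 7276 and 10019 in the live control libraries. Both low libraries lay above all 4 others, an order whose share over all open genes was not computed. The high and live control libraries overlapped.

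For POLH the mean log2 rank was 13.75 ± 0.93 in the H3K27ac-high and 11.59 ± 0.86 in the H3K27ac-low libraries (SD, n = 2 each), a difference of 2.16. The exact permutation test gave p = 0.3333 (adjusted p = 0.646), and 2.22% of the 7061 genes differed by at least as much in that direction. The difference was 1.50 without H3K27ac high replicate 1 and 2.82 without high replicate 2. Low against live control differed by -1.47 (exact p = 0.3333, adjusted p = 0.533), and by -0.86 without H3K27ac low replicate 2. Of the 7061 genes, 13.0% differed by at least as much in that direction. Counted together, 2 of the 5 open members (UNG and POLH) ranked lower in both high than in both low libraries, close to the 38.4% share of all open genes, and none ranked higher in both. Likewise 2 of the 5 (MSH6 and POLH) ranked higher in both low than in both live control libraries, close to the 39.8% share of all open genes, and none ranked lower, against 22.7%. By this test 0 of the 7061 genes had a p under 0.05 in any comparison, adjusted or not.

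**Figure D3:**
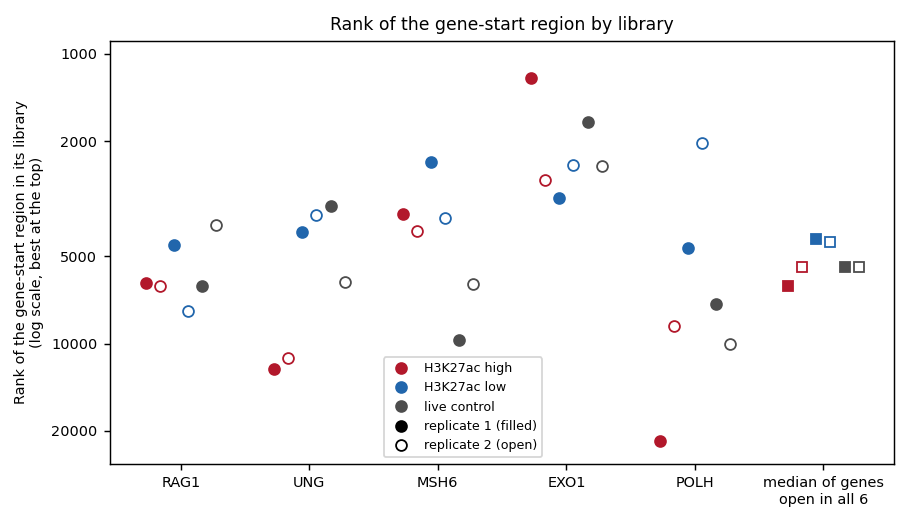
Rank of the gene-start region in each library (log axis, best at the top) for the 5 members open in all 6 libraries, with the median over the 7061 genes open in all 6 at the right. Filled points are replicate 1 and open points replicate 2; UNG sits at 11192 and 12262 in the H3K27ac-high libraries and at 3345 to 6151 in the others.

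**Figure D4:**
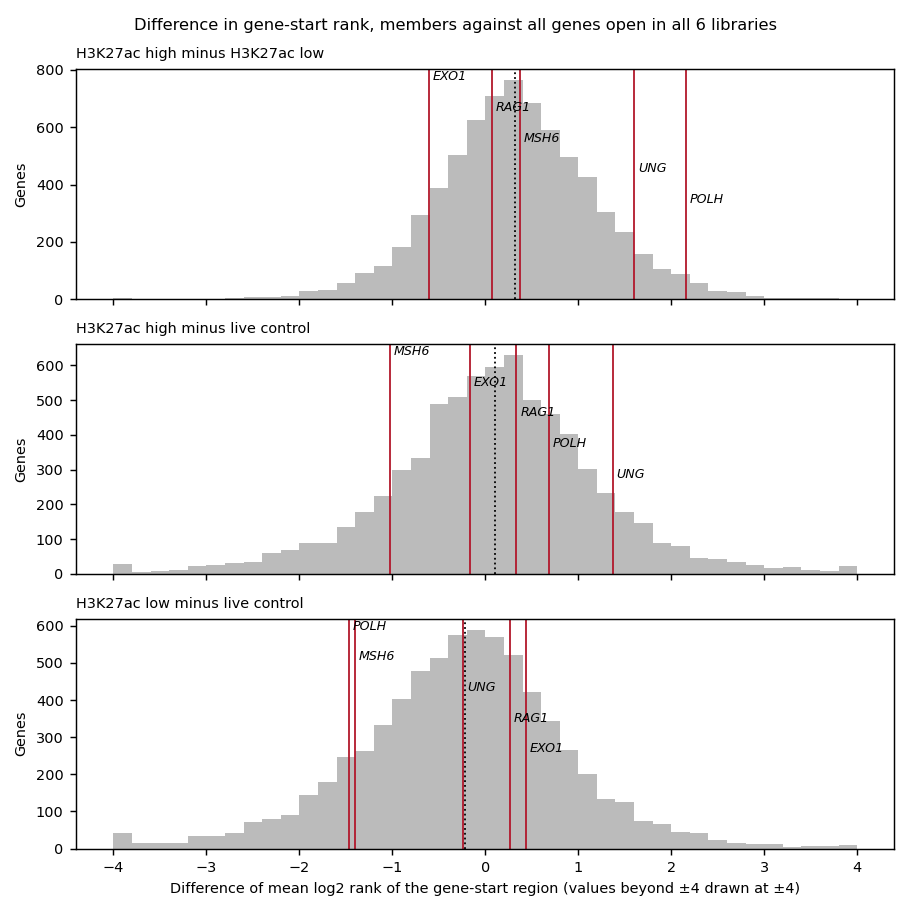
Difference in mean log2 rank between groups for all 7061 genes (grey histogram, values beyond the axis limits drawn at the limits), with members as red lines and the median of all genes dotted. UNG at 1.60 and POLH at 2.16 lie to the right of the median of 0.32 in the high minus low panel, where a positive value is a worse rank in the high libraries.

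Downstream of POLH, a region was listed in all 4 sorted libraries and in neither live control. It lay at chr6:43630089-43630115, 562 bp from the nearest start of MAD2L1BP, a mitotic checkpoint regulator, and ranked 6610 and 3842 in the H3K27ac-high and 5721 and 5634 in the H3K27ac-low libraries. Of the 41408 regions among the best of any library, 1.42% were among the best of all 4 sorted and neither live control library. That criterion is looser, as such a region may stand further down a live control list. In both live control libraries the nearest summit was 732 bp away, at 43629357, in a region present in all 6 libraries between the starts of GTPBP2 and MAD2L1BP. That region ranked 1552 and 3540 in the high, 2180 and 2598 in the low and 3274 and 4420 in the live control libraries. Another downstream region, 27 bp from another MAD2L1BP start (chr6:43635739-43635887), was absent from H3K27ac high replicate 1, ranked 14862 in high replicate 2, 22567 and 9896 in the low and 22050 and 14896 in the live control libraries. The low libraries overlapped with the others, and the 1 high library that listed it ranked it above both live control libraries. Every deposited peak has 1 summit, so 2 neighbouring sites inside 1 peak would be listed as 1.

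By number of best regions per window, no member separated the H3K27ac-high from the H3K27ac-low libraries. Over all 19974 genes, 3.10% had more in both high than in both low libraries and 7.55% had fewer. POLH had 3 and 4 regions in the high, 4 and 4 in the low and 3 and 3 in the live control libraries, the 1 member whose low and live libraries did not overlap (exact permutation test, p = 0.3333, adjusted over all genes p = 1), against 6.34% of genes. None had fewer in both low than in both live control libraries, against 5.97% of genes. The POLH difference between low and live was 0 with summits joined below 1000 bp, 0 in the gene body without flanks and -0.5 with whole lists. High against live control separated no member, against 4.80% (more) and 9.13% (fewer) of all genes. In all windows together, counting shared regions once, the high libraries had 12 and 13 best regions, the low libraries 13 and 10 and the live control 11 and 12. Means were 12.5 ± 0.71, 11.5 ± 2.1 and 11.5 ± 0.71 (SD, n = 2 each), so the differences of 1, 1 and 0 regions (high minus low, high minus live, low minus live) were within or close to the spread between replicates.

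Of the 15 regions in these windows that were among the best of any library, 6 were among the best of all 6 libraries, against 35.2% of all such regions. They were the 5 member starts and the region between GTPBP2 and MAD2L1BP. None was held by both high and neither low library (2.37% of all regions), by both low and neither high library (3.30%) or by both live and no sorted library (2.18%).

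The rank profiles over the 6 libraries were set against 7056 other genes open in all of them. The closest to RAG1 and POLH were TRAF6 and XPO5, at a distance of 0, because each pair shares 1 region. The next was NDUFA12, a respiratory chain subunit gene, for RAG1 (Euclidean distance of log10 ranks 0.151) and, tied for POLH, MORC2 and TUG1 (0.230), which share 1 region. Nearest to UNG were PRDM11 (0.165) and TAF6L (0.166), nearest to MSH6 were LDHA (0.157) and IPMK (0.172), and nearest to EXO1 were AGA (0.216) and LCMT1 (0.223).

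Other genes of the same pathways were open at their starts in nearly all libraries. Of 14 genes for joining and recombination cofactors, 11 had an annotated start, and 10 of these were open in all 6 libraries, against 44.7% of all genes with a start. PAXX, an end-joining factor, was the other: it was absent from H3K27ac high replicate 1 and ranked 17475 in high replicate 2, 11627 and 10744 in the low and 11904 and 15000 in the live control. Among the 10, both high libraries ranked below both low libraries for 5 (XRCC6, POLL, POLM, HMGB1 and H2AX) and above them for LIG4, the ligase of end joining, near the shares of 38.4% and 13.2% over all open genes. XRCC6, a subunit of the Ku complex that binds broken ends, ranked 3162 and 2172 in the high, 841 and 826 in the low and 7640 and 5763 in the live control libraries.

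Of 22 cofactors of class switching and hypermutation, 20 had an annotated start and 19 were open in all 6 libraries, against 44.7% of all genes with a start. EXOSC10, a subunit of the RNA exosome, was among the best regions of both low libraries (ranks 11984 and 17995) and of neither high library, where replicate 2 listed it at rank 30437 and replicate 1 not at all, a pattern of 1.39% of all genes with a start. The live control ranked it 14801 and 11480. Both high libraries ranked below both low libraries for 7 (PMS2, REV1, TP53BP1, MAD2L2, RNF168, SUPT5H and SUPT4H1) and above them for 4 (APEX1, MBD4, USP1 and PTBP2). Over all open genes these shares were 38.4% and 13.2%, so the count below is at the background. MBD4, a glycosylase that removes uracil and thymine from mismatches, ranked 219 and 146 in the high, 845 and 940 in the low and 1783 and 3166 in the live control libraries. The median high minus low difference in log2 rank was 0.57 over the 10 joining genes and 0.40 over the 19 hypermutation genes, against 0.32 over all 7061.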

How the data were processed

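Accessibility was profiled in 6 libraries of 50000 GM12878 cells, transposed for 30 min at 37 °C per the labels' protocols. The staining protocol in the labels gives the target as H3K37ac, read here as H3K27ac. Per the submitters' processing notes, bcl2fastq, FastQC, Bowtie2, Picard and MACS2 were used, with builds hg38 and hg19. For versions, settings, Tn5 shift and duplicate handling, nothing is stated (not given in the sources used here). The authors deposited 1 list of summit positions per library, each with a score read as a −log10 p-value or q-value. Scores grow with depth, so they were ranked within a list only. Depth is unknown, as no read totals were used, and precision is limited by 2 libraries per group.

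Summits on chromosomes 1 to 22 and X were chained below 250 bp into 100513 regions and ranked by best score, ties by position (Python 3.11.15, pandas 2.3.3). The best 25627 per library were compared. Starts came from a RefSeq promoter table, which holds 15812 of 19974 protein-coding genes. Where an annotated start was given it was used in place of either gene end. Groups were compared with exact two-sided permutation tests, adjusted by Benjamini-Hochberg over all genes, and calls were groups that do not overlap. The code was tested on simulated data. All 7 members were named. Of list genes, those open in both libraries of one sorted group and neither of the other were named by rule, and the other list genes were chosen after their values were seen. For each open member, the 2 genes nearest in rank profile were named. Members and lists were chosen with earlier results of these data known. Alternatives covered list length, chaining, flank, start window, unit counted and each library left out. A replicate block cannot change a difference of means in this design.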

Additional observations from a re-analysis of the deposited data

How the results depend on the processing

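The count of 5 members open at a start in all libraries was 4 with the best 12813 regions per list, where POLH was lost. It was 5 under the other settings run, including either gene end in place of starts (chosen after seeing the data). Each library left out gave 5 by construction, because the cut of 25627 regions was kept and RAG2 and DNTT were open in none. The difference in regions over all windows depended on list length. With whole lists it was -3.5 (high minus low), -9.5 (high minus live control) and -6 (low minus live control), the lists being unequal in length. With the best 12813 regions it was -1.5 (high minus low) and 2.5 (low minus live control), and the cause was not tested. High minus live control was 0 with chaining below 1000 bp and 0.790 summits per 10000 with single summits of whole lists. Leaving out 1 library gave -0.5 to 2.5 (high minus low), 0.5 to 1.5 (high minus live control) and -1.5 to 1.5 (low minus live control). High minus low was -0.5 with low replicate 2 left out and 2.5 with low replicate 1 left out.

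With the replicate number as a block the differences stay 1, 1 and 0 by construction, because every group holds replicates 1 and 2. A block is therefore no separate check of them. The replicate numbers share no stated origin. Differences between replicates 1 and 2 correlated across 7061 genes at 0.072 (high and low), 0.027 (high and live control) and -0.0025 (low and live control). The UNG difference in log2 rank between high and low was 1.51 to 1.70, and that of POLH 1.50 to 2.82, with 1 library left out. List length and start window left both ranks as they were by construction wherever the same region was taken, and POLH gave no value with the best 12813. The joining and hypermutation cofactors open in all libraries numbered 9 and 14 with the best 12813 regions. Without read counts, a region missing from the shortest list cannot be told from one below its threshold.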

Other observations

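Among the 34 regions of whole lists, 11 were listed in 1 library alone. Of these, 8 were in the live control libraries (2 in replicate 1 and 6 in replicate 2), 3 in the H3K27ac-low libraries (1 in replicate 1 and 2 in replicate 2) and 0 in the H3K27ac-high libraries. The whole lists run from 25754 summits (H3K27ac high replicate 1) to 72476 (live control replicate 2), and such counts move with list length. The same split over all 100513 regions was not computed, so it is no result about these genes. All 11 ranked below the best 25627 of their library, the best at 26510. At the edge of the POLH window, beside RSPH9, the summit of live control replicate 2 lay 11 bp inside and that of H3K27ac low replicate 2, in the same region, 21 bp outside.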
